A study of Sus scrofa with 6 samples.

Results

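Mitochondrial ribosomal proteins build the ribosome inside mitochondria, and their genes were followed in porcine oocytes that were cultured as controls, exposed to heat stress, or exposed to heat stress with nicotinamide mononucleotide (NMN), a precursor of NAD+. The last group is called NMN-supplemented, or "with NMN". The members were all rows of the deposited expression table whose symbol starts with MRPL or MRPS followed by a digit. This gave 77 of 29861 genes, of which 48 carry the MRPL symbol of the large subunit and 29 the MRPS symbol of the small subunit. There were 2 samples in each of the 3 groups. The labels give the GV stage and 24 h for every sample, whereas the study's methods give the metaphase II stage for the sequenced oocytes. The control group had neither heat stress nor NMN, and no group with NMN alone was among the samples. Each sample was a pool of oocytes. No source says whether the 2 samples of a group came from separate cultures, so P-values measure only the spread between these samples, which may be technical.

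The mitochondrial ribosome translates only the few proteins that are encoded in mitochondrial DNA, which are core subunits of the respiratory chain and of ATP synthase. Its ribosomal RNAs come from the mitochondrial genome, while all of its proteins are encoded in the nucleus, made in the cytosol and imported. Many of them have counterparts in the bacterial ribosome, and others are found only in mitochondria. Oocytes hold a very large store of mitochondria, which the embryo inherits, and a fully grown oocyte transcribes little and lives on stored mRNA.

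Levels are given as FPKM, a level per length of transcript that is also scaled to the number of mapped fragments. Oocyte markers summed to between 2539 and 2978 FPKM, and 12 of 15 had a mean of at least 1 FPKM, with SOHLH1 listed at 0 in all samples. BMP15 held most of this sum, at 1606 to 1940 FPKM. GDF9, ZAR1, ZP2, ZP3, ZP4, NLRP5, NOBOX and FIGLA were lower in NMN-supplemented than in control oocytes without overlap. The share of all genes without overlap was not counted. Examples picked with their values known are GDF9 (732 and 777 FPKM in controls, 435 and 353 with NMN), ZAR1 (17.3 and 23.8 against 4.30 and 2.83) and ZP3 (24.7 and 26.3 against 11.9 and 8.38). BMP15 was higher without overlap (1606 and 1646 FPKM in controls, 1820 and 1751 with NMN), and KHDC3L, H1FOO, OOEP, DAZL and DDX4 overlapped. Of 17 markers of cumulus and granulosa cells, only INHBA reached a mean of 1 FPKM, and AMHR2 was listed at 0. The sum of these markers was 18.0 and 14.2 FPKM in controls, 11.2 and 8.71 under heat stress, and 5.86 and 11.9 with NMN. Most of each sum was INHBA alone, at 16.4 and 13.2, 10.15 and 6.44, and 4.35 and 10.21 FPKM in the same order. The part of either marker list in the results was not tested. No marker of blood, endothelium or stroma reached 1 FPKM. Mitochondrially encoded genes took between 61.7 and 74.7% of the summed FPKM. In heat-stressed replicate 1, the unnamed gene LOC100513953 took 37.0% of the FPKM of nuclear genes, and it was at 0 in the other samples. FPKM are relative values, and in bulk samples fewer cells of a type and less RNA per cell cannot be told apart.

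The 77 genes spanned more than 3 orders of magnitude. Their mean over the 6 samples ran from 0.0249 to 74.6 FPKM, with a median of 0.799 FPKM, while the median of all genes in the table was 0.0338 FPKM. Only 7 members reached a mean of 10 FPKM, and 9 lay under 0.1 FPKM. None was listed at 0 in all 6 samples. The median level was 0.854 FPKM for the large and 0.667 FPKM for the small subunit. The products of these genes are built into one particle, but their mRNA levels were far from equal.

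**Figure D1:**
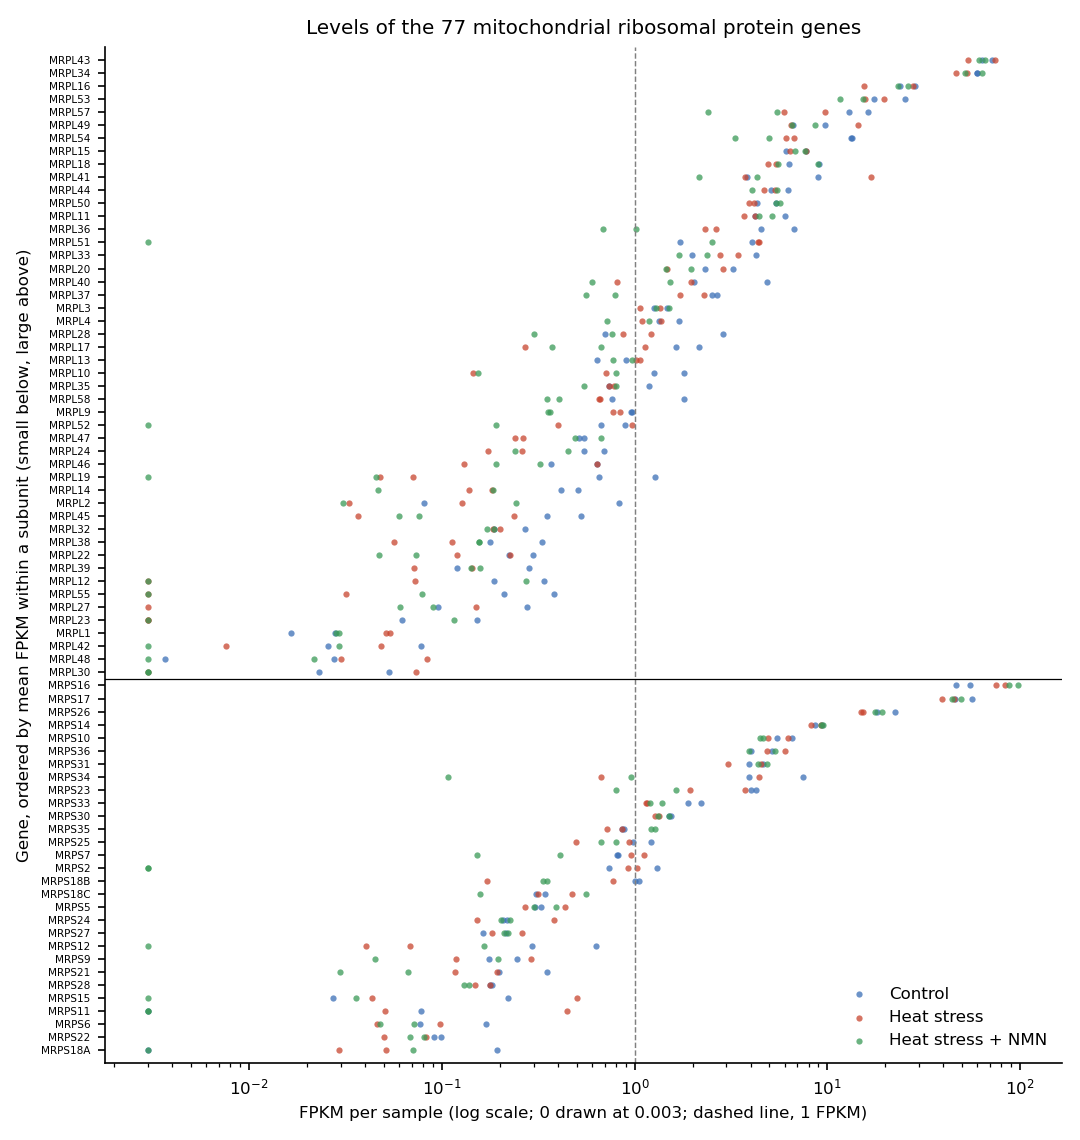
Each row is 1 of the 77 genes, and each point is the FPKM of 1 sample on a logarithmic axis, coloured by group, with values of 0 drawn at 0.003. The levels ran from 0.0249 to 74.6 FPKM on average, and in each subunit a few genes at the top stood well above the rest.

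The small subunit was led by MRPS16, a protein with a bacterial counterpart that binds the small ribosomal RNA. Its FPKM was 55.3 and 46.6 in controls, 84.1 and 75.4 under heat stress, and 98.3 and 88.2 with NMN. MRPS17, another RNA-binding protein shared with bacteria, had 46.2 and 56.1, 45.5 and 39.2, and 49.4 and 44.2 FPKM in the same order. MRPS26, found only in mitochondria, followed with a mean of 17.9 FPKM, then MRPS14 with 9.06 and MRPS10 with 5.40 FPKM. The levels of MRPS14 lay between 8.26 and 9.54 FPKM in all 6 samples, and those of the groups overlapped.

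The large subunit was led by MRPL43, a protein found only in mitochondria, with 63.8 and 71.9 FPKM in controls, 74.1 and 54.0 under heat stress, and 61.4 and 66.0 with NMN. MRPL34, whose bacterial counterpart is among the smallest ribosomal proteins, had 59.8 and 59.9, 46.4 and 53.1, and 52.2 and 63.3 FPKM. MRPL16, which in bacteria lies near the site where tRNA enters, had a mean of 24.2 FPKM, MRPL53 17.5 FPKM and MRPL57 8.80 FPKM. The groups overlapped for MRPL43 and MRPL16 in every comparison. MRPL43 shares exon sequence with TWNK, the mitochondrial DNA helicase, at 0.0398 to 1.49 FPKM, and MRPL53 with CCDC142 and TTC31. The library kit is not stated to keep the strand, so reads of overlapping genes cannot be told apart.

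MRPS16, MRPL43, MRPL34 and MRPS17 together took 50.8 and 50.3% of the members' summed FPKM in controls, 55.0 and 59.1% under heat stress, and 62.0 and 64.0% with NMN. The sum of the other 73 genes was 218 and 232 FPKM in controls, 205 and 154 under heat stress, and 160 and 147 with NMN. Both control samples lay above all 4 others in this sum, and the heat-stressed and NMN-supplemented samples overlapped. Members at or above 1 FPKM numbered 35 and 41 in controls, 34 and 34 under heat stress, and 31 and 26 with NMN. Members listed at 0 numbered 1 and 1, 3 and 3, and 4 and 12, with the highest count in NMN-supplemented replicate 2. Genes with a mean under 1 FPKM were not tested.

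For the tests, 1 FPKM was added before taking log2, which makes the fold changes of low genes smaller than their FPKM ratios, and genes with a mean of at least 1 FPKM were kept. This left 4713 genes, among them 34 members, 23 of the large and 11 of the small subunit. All groups were fitted in one limma model, and a gene is called changed here at an unadjusted P under 0.05, with the Benjamini-Hochberg adjusted P beside it. The 3 comparisons share samples, so their results are given side by side and are not independent of each other. Each log2 fold change is followed by its standard error (SE).

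In heat-stressed against control oocytes, 5 of the 34 tested members were called lower and 1 higher. Over all tested genes, 10.1% were called lower and 12.7% higher, so the share of lower members was not far above the background. None had an adjusted P under 0.05, nor did any of the 4713 genes in limma, while 1074 genes had an unadjusted P under 0.05. The fitted difference was below 0 for 27 of the 34 members and for 44.9% of all tested genes. Its median was -0.26 on the log2 scale for the members and 0.05 for every tested gene. By group means of FPKM alone, 61 of all 77 members were lower in heat-stressed oocytes, 41 of 48 in the large and 20 of 29 in the small subunit. When genes under 1 FPKM were fitted as well, 60 of the 77 members and 50.8% of 20552 genes were lower.

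The called member with the largest fall was MRPL54, a large-subunit protein found only in mitochondria. Its FPKM was 13.3 and 13.4 in controls, 6.12 and 6.70 under heat stress, and 3.34 and 4.96 with NMN. The 3 groups did not overlap, and the log2 fold change with heat stress was -0.96 ± 0.17 (SE; adjusted P = 0.111). MRPL36, whose bacterial counterpart is a very small zinc-binding protein of the large subunit, had 4.51 and 6.75 FPKM in control and 2.66 and 2.32 FPKM in heat-stressed oocytes. Its fitted difference was -0.91 ± 0.20 (SE; adjusted P = 0.127). MRPL17, with a bacterial counterpart, also fell, from 1.65 and 2.15 to 1.14 and 0.269 FPKM (adjusted P = 0.185), but the heat-stressed samples lay far apart and the call was lost without heat-stressed replicate 2, at a log2 fold change of -0.44, or without either control sample.

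In the small subunit, MRPS33 fell from 1.89 and 2.22 FPKM in control to 1.15 and 1.17 FPKM in heat-stressed oocytes, or -0.50 ± 0.12 on the log2 scale (SE; adjusted P = 0.136). MRPS26 fell from 18.0 and 22.4 to 15.0 and 15.3 FPKM, by -0.39 ± 0.14 on the log2 scale (SE; adjusted P = 0.191), a call that was lost when control replicate 2, either heat-stressed or either NMN-supplemented sample was left out. Both proteins are found only in mitochondria. MRPS26 shares exon sequence with GNRH2 and MRPL17 with LOC106507820, which had at most 0.107 and 0.222 FPKM. MRPS16 was the one member called higher, by 0.64 ± 0.14 on the log2 scale (SE; adjusted P = 0.122), with both heat-stressed samples above both controls.

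In NMN-supplemented against heat-stressed oocytes, 4 of the 34 tested members were called lower and 1 higher, where 6.45% of all tested genes were called lower and 7.15% higher. No gene in the table had an adjusted P under 0.05 in limma, and 641 had an unadjusted P under 0.05. The fitted difference was below 0 for 19 of the 34 members and for 38.9% of all tested genes. Its median was -0.16 for the members and 0.08 for every tested gene. The medians of the subunits were -0.20 for the large and 0.09 for the small subunit.

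MRPL37, a large-subunit protein found only in mitochondria, had 2.29 and 1.72 FPKM in heat-stressed and 0.558 and 0.795 FPKM in NMN-supplemented oocytes, against 2.52 and 2.67 FPKM in control. Its log2 fold change against heat stress was -0.84 ± 0.15 (SE; adjusted P = 0.222). MRPL36 was lower again, at 1.02 and 0.684 FPKM, by -0.92 ± 0.20 on the log2 scale (SE; adjusted P = 0.222). MRPL54 was lower by a smaller amount (-0.54 ± 0.17, SE; adjusted P = 0.34), and this call was lost without heat-stressed replicate 2 or NMN-supplemented replicate 1.

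MRPS23, a small-subunit protein found only in mitochondria, went from 3.73 and 1.94 FPKM in heat-stressed to 1.64 and 0.798 FPKM in NMN-supplemented oocytes (adjusted P = 0.354). The call was lost without heat-stressed replicate 1, NMN-supplemented replicate 2 or either control sample. MRPL50, also found only in mitochondria, was the one member called higher, with 3.92 and 4.14 FPKM in heat-stressed and 5.42 and 5.68 FPKM in NMN-supplemented oocytes (0.38 ± 0.13, SE; adjusted P = 0.352). Its control samples had 4.34 and 5.41 FPKM, between the other groups, and the call was lost without any one of the 4 samples compared. MRPS16 was not called in this comparison (0.22 ± 0.14, SE; adjusted P = 0.453).

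In NMN-supplemented against control oocytes, 10 of the 34 tested members were called lower and 1 higher, where 15.7% of all tested genes were called lower and 25.6% higher. With an adjusted P under 0.05, 5 members were lower and 1 higher, against 9.17 and 12.4% of all tested genes. Without control replicate 2 or without either NMN-supplemented sample, 0 members kept an adjusted P under 0.05, and at most 1 gene in the table did. The fitted difference was below 0 for 27 of the 34 members and for 40.4% of all tested genes. Its median was -0.27 for the members and 0.11 for every tested gene. By group means, 62 of all 77 members were lower, 42 of 48 in the large and 20 of 29 in the small subunit. When genes under 1 FPKM were fitted as well, 62 of the 77 members and 54.2% of 20552 genes were lower.

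The 5 members with an adjusted P under 0.05 that fell were MRPL36, MRPL54, MRPL37, MRPL57 and MRPS23. MRPL36 fell by 1.83 ± 0.20 on the log2 scale (SE; adjusted P = 0.021), MRPL54 by 1.50 ± 0.17 (SE; adjusted P = 0.021) and MRPL37 by 1.1 ± 0.15 (SE; adjusted P = 0.021). MRPL57, a short large-subunit protein found only in mitochondria, had 12.9 and 16.3 FPKM in controls, 9.73 and 5.94 under heat stress, and 5.48 and 2.41 with NMN. It fell by 1.73 ± 0.36 (SE; adjusted P = 0.0317), and its exons overlap those of SKA3, which had between 0.416 and 0.950 FPKM. MRPS23 had 4.27 and 4.01 FPKM in control and fell by 1.24 ± 0.29 (SE; adjusted P = 0.0378). In each of these 5 genes the heat-stressed samples lay below both controls and above both NMN-supplemented samples.

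MRPS16 rose by 0.86 ± 0.14 on the log2 scale (SE; adjusted P = 0.0223), from a mean of 50.9 ± 6.16 FPKM in control to 93.2 ± 7.12 FPKM in NMN-supplemented oocytes (SD, n = 2). Its calls in both comparisons with control were lost when samples were scaled to the same FPKM sum over nuclear genes, with log2 fold changes of 0.27 and 0.88. MRPS34, a protein found only in mitochondria whose loss causes mitochondrial disease in humans, had the largest fitted fall, but its samples were far apart within groups. Its FPKM was 7.50 and 3.93 in controls, 4.41 and 0.668 under heat stress, and 0.107 and 0.962 with NMN. The log2 fold change was -2.13 ± 0.62 (SE; adjusted P = 0.0617), and the call was lost without control replicate 1 or NMN-supplemented replicate 1. The other 4 members called lower were MRPL17 (adjusted P = 0.0633), MRPL53 (adjusted P = 0.101), MRPL40 (adjusted P = 0.115) and MRPS33 (adjusted P = 0.0661), none with an adjusted P under 0.05 in limma, and each of these calls was lost when 1 or more of the samples was left out. The first and the last of these were also lower in heat-stressed oocytes.

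**Figure D2:**
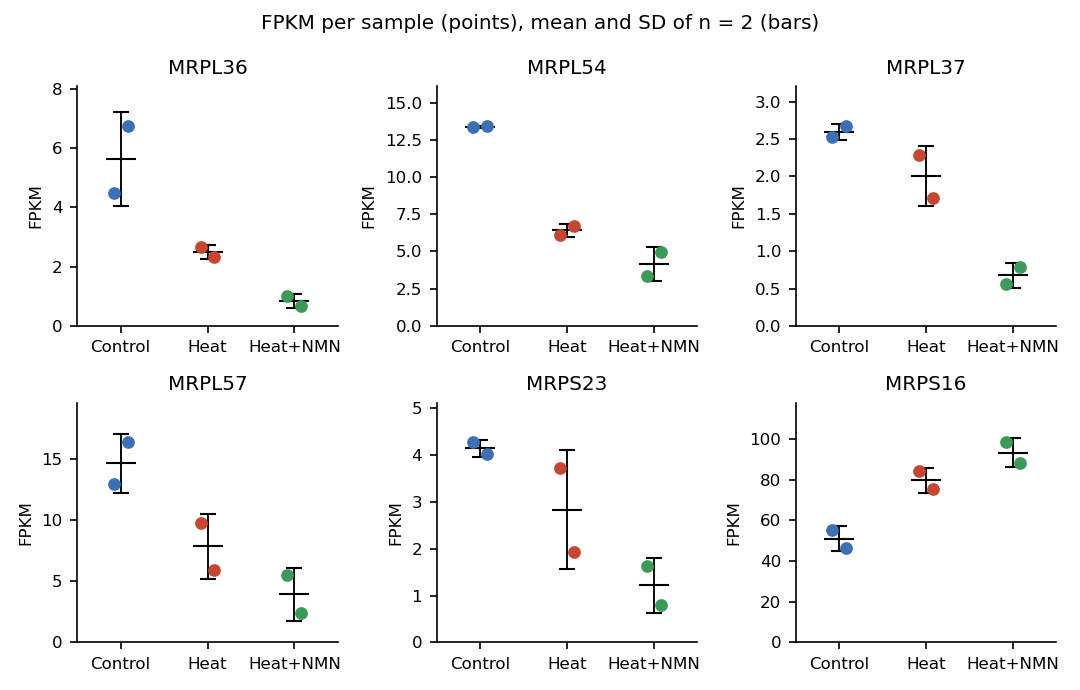
FPKM of MRPL36, MRPL54, MRPL37, MRPL57, MRPS23 and MRPS16 in each of the 6 samples, with points for samples and bars for the mean and SD of the 2 samples per group. The first 5 were lowest in NMN-supplemented and highest in control oocytes, and MRPS16 ran the other way, from a mean of 50.9 to 93.2 FPKM.

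The DNA in front of these 6 genes is shown because they are the members with the smallest adjusted P, 5 lower and 1 higher in NMN-supplemented than in control oocytes. The 120 bases before each annotated transcript start in RefSeq (build Sscrofa11.1) are given 5′ to 3′ on the strand of the gene, with capitals for a motif found in them.
MRPL36 (chr16:79001368-79001487, plus strand): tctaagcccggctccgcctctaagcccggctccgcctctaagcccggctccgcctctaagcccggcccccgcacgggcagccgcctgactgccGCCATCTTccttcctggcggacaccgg
MRPL54 (chr2:74928197-74928316, minus strand): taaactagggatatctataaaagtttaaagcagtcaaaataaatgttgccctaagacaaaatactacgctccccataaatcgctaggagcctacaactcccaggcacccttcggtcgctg
MRPL37 (chr6:158143530-158143649, minus strand): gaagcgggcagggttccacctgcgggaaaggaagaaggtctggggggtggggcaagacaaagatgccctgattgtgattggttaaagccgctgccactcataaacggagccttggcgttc
MRPL57 (chr11:1320726-1320845, plus strand): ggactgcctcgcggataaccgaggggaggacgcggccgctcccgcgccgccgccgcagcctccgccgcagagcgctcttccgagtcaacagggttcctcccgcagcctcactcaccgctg
MRPS23 (chr12:34129575-34129694, minus strand): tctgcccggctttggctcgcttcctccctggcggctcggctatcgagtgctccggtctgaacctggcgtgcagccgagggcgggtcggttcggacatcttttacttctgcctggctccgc
MRPS16 (chr14:76074640-76074759, minus strand): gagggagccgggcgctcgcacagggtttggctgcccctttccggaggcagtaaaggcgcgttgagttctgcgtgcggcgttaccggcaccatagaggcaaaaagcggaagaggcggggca

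NRF1, GABPA of the ETS family and YY1 are factors known to bind promoters of nuclear genes for mitochondrial proteins. Their motifs were searched on both strands as CGCATGCG for NRF1, CCGGAAGT for GABPA and AAGATGGC for YY1, none of which is contained in another, from 250 bases before to 50 bases after the annotated start of the 76 members annotated as protein-coding. Of these 76 promoters, 16 (21.1%) held at least 1 of the 3 motifs, and 8.3% of 20641 promoters of protein-coding genes did. The share was 5.3 against 2.0% for NRF1, 9.2 against 4.5% for GABPA and 7.9 against 2.4% for YY1. The median GC content of the windows was 60.7% for members and 58.0% for all, and its part in these shares was not tested. Among the 6 sequences shown, only that of MRPL36 held a match, to the YY1 letters on the opposite strand. A match is a description of the letters and not a site. A neighbouring gene on the opposite strand started within 1000 bases upstream of 19 of the 76 members (25.0%), and of 8.3% of all promoters. One such pair joins both subunits, since the starts of MRPS11 and MRPL46 lie 39 bases apart. Their windows overlap and both held the YY1 letters, so the same match may be counted in both. These 2 genes were picked with their values known.

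The large and small subunits were then set side by side. In NMN-supplemented against control oocytes, 7 of 23 tested large-subunit genes were called lower and 0 higher, and 3 of 11 tested small-subunit genes lower and 1 higher. Of all tested genes, 15.7% were called lower and 25.6% higher. In either direction, 30.4% of the large-subunit, 36.4% of the small-subunit and 41.3% of all tested genes were called. The median log2 fold change was -0.39 for the large and -0.12 for the small subunit. In heat-stressed against control oocytes, 3 of 23 large-subunit genes were called lower and 0 higher, and 2 of 11 small-subunit genes lower and 1 higher, with medians of -0.26 and -0.16. Of all tested genes, 10.1% were called lower and 12.7% higher in that comparison. Without heat-stressed replicate 2 the large-subunit median in that comparison was -0.13, and without control replicate 2 the small-subunit median in NMN-supplemented against control oocytes was 0.0048. In NMN-supplemented against heat-stressed oocytes the large-subunit median was 0.0071 without heat-stressed replicate 1. The difference between subunits was not tested, as genes are not replicates.

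**Figure D3:**
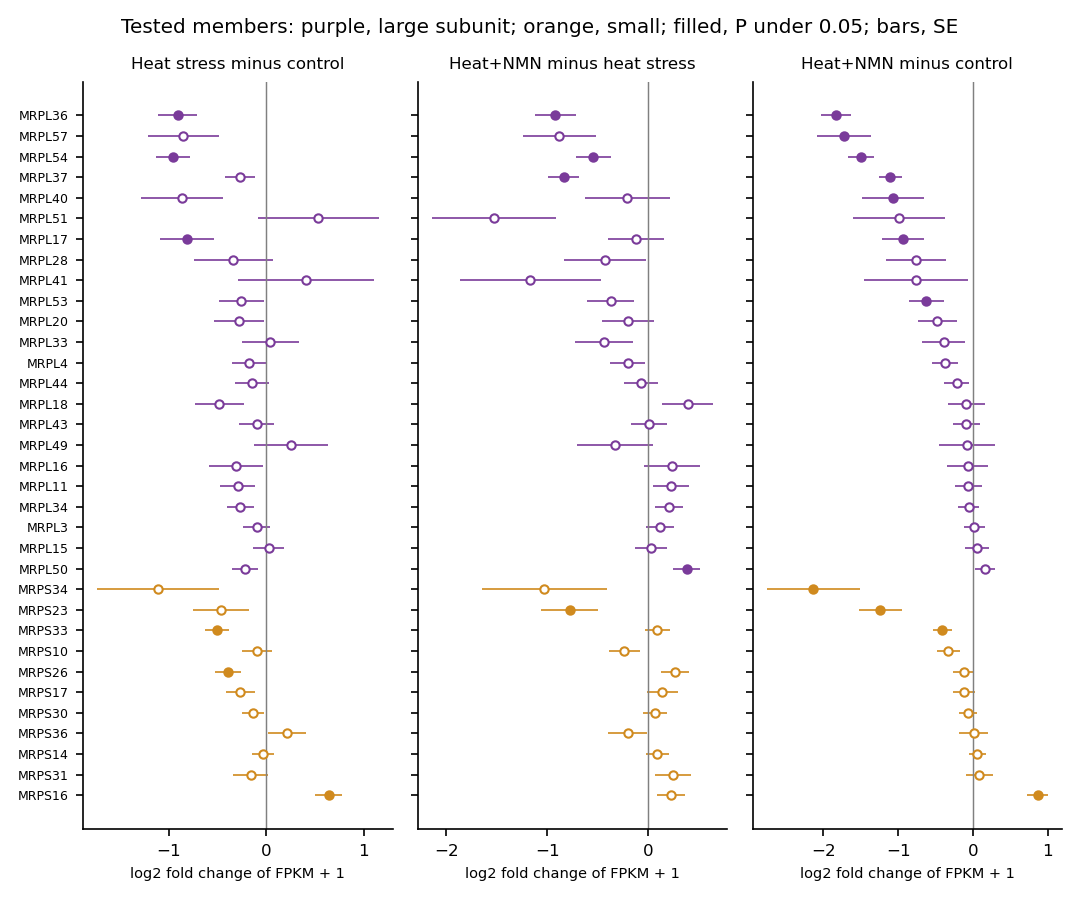
Log2 fold changes of FPKM + 1 for the 34 tested members in the 3 comparisons, with SE as bars, large-subunit genes in purple, small-subunit genes in orange and filled points where the unadjusted P was under 0.05. Below 0 lie 27 of the 34 points in both comparisons with control, where 44.9% (heat stress) and 40.4% (NMN) of all tested genes were lower. MRPS16 is the one filled point above 0 in these comparisons.

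The summed FPKM of the large subunit was 278 and 297 in controls, 269 and 211 under heat stress, and 224 and 225 with NMN, and that of the small subunit 166 and 169, 186 and 165, and 198 and 183. The ratio of the MRPL to the MRPS sum was 1.68 and 1.76 in controls, 1.45 and 1.28 under heat stress, and 1.13 and 1.23 with NMN. Its means were 1.72 ± 0.06, 1.36 ± 0.12 and 1.18 ± 0.07 (SD, n = 2), and the samples of the 3 groups did not overlap. With 2 samples against 2, a two-sided exact permutation test gave P = 0.333 for each comparison, which is the smallest value it can give. MRPS16 took 33.4 and 27.6% of the small-subunit sum in controls, 45.3 and 45.8% under heat stress, and 49.7 and 48.1% with NMN. Without MRPS16 the ratio was 2.52 and 2.43, 2.65 and 2.36, and 2.25 and 2.37, so that the heat-stressed samples overlapped both of the other groups while both controls still lay above both NMN-supplemented samples. The two-sided exact permutation P was then 1.0 for heat stress against control, 0.667 for NMN against heat stress and 0.333 for NMN against control. As this test can give no P under 0.333 here, it cannot decide whether either ratio changed. MRPS16 was left out of the ratio with its values known.

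**Figure D4:**
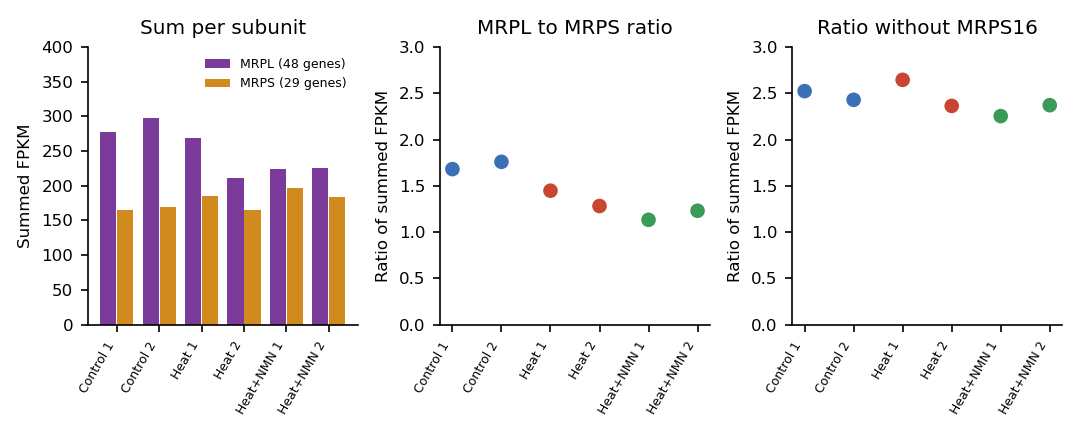
Summed FPKM of the 48 MRPL and 29 MRPS genes in each sample (left), the ratio of these sums (middle) and the same ratio without MRPS16 (right). The ratio fell from 1.68 and 1.76 in control to 1.13 and 1.23 in NMN-supplemented oocytes, while without MRPS16 all 6 samples lie between 2.25 and 2.65.

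For 3 genes the symbol does not give the place of the protein. The proteins of MRPS30 and MRPS18A sit in the large subunit, and that of MRPS36 belongs to the α-ketoglutarate dehydrogenase complex in mammals. MRPS30 had 1.54 and 1.52 FPKM in controls, 1.33 and 1.27 under heat stress, and 1.51 and 1.32 with NMN, and MRPS36 had between 3.91 and 6.05 FPKM, with overlapping groups. MRPS18A had at most 0.194 FPKM and was listed at 0 in control replicate 1 and NMN-supplemented replicate 2. With the subunits drawn by structure in this way, the medians in heat-stressed against control oocytes were alike. They were -0.26 over 24 large-subunit genes and -0.26 over 9 small-subunit genes, where by symbol they were -0.26 and -0.16. In NMN-supplemented against control oocytes the medians by structure were -0.38 and -0.12.

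Members were also split by whether the protein has a counterpart in the bacterial ribosome. Of 32 members found only in mitochondria 17 were tested, and in NMN-supplemented against control oocytes 8 were called lower and 0 higher, with a median log2 fold change of -0.63. Of 44 members with a bacterial counterpart 16 were tested, with 2 called lower, 1 higher and a median of -0.11. Over all tested genes, 15.7% were called lower and 25.6% higher in that comparison. In heat-stressed against control oocytes the medians were -0.26 for both classes. Of the members found only in mitochondria 3 were called lower, and of the others 2 lower and 1 higher, against 10.1 and 12.7% of all tested genes. In NMN-supplemented against heat-stressed oocytes the medians were -0.33 and 0.06. With a minimum mean of 0.1 FPKM or no filter, the medians in NMN-supplemented against control oocytes were -0.36 and -0.26 for members found only in mitochondria and -0.16 and -0.13 for the others. MRPL55, which was not tested at 1 FPKM, was placed among the former after its values were seen. The difference between these classes was not tested.

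The length of the transcript and its GC content moved with the fold changes, among the members and in the whole table. Across the 34 tested members, Spearman's rho of the log2 fold change between NMN-supplemented and control oocytes was 0.421 with transcript length and -0.649 with GC content. Across the 4545 tested genes with an annotated transcript, rho was 0.408 and -0.437, and genes are not independent replicates. The median transcript of the 77 members was 1348 bp. Of the 13 tested members up to 1000 bp 5 were called lower in this comparison, where 30.8% of all 390 such genes were. Over 1000 and up to 2000 bp, 4 of 14 members were called lower and 24.8% of all genes, and over 2000 bp 1 of 7 members and 11.3% of all genes. The median log2 fold change was -0.76 for members and -0.31 for all genes up to 1000 bp, -0.17 and -0.11 over 1000 and up to 2000 bp, and -0.07 and 0.22 over 2000 bp, so that the members' median was lower in each class. These differences were not tested. The part of length and GC content in the result was not tested.

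**Figure D5:**
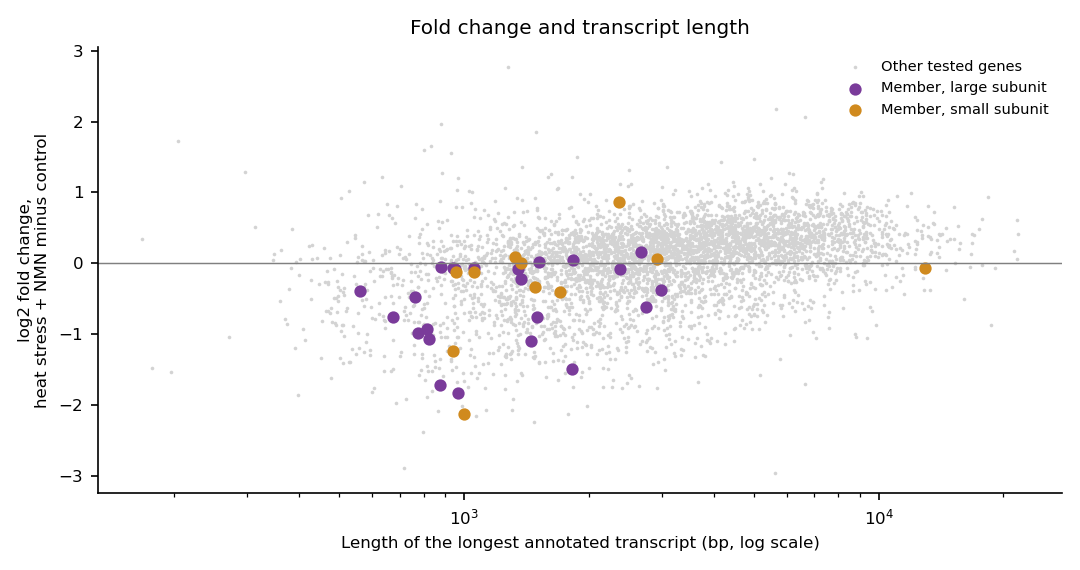
Log2 fold change of FPKM + 1 between NMN-supplemented and control oocytes against the length of the longest annotated transcript (logarithmic axis), with all tested genes in grey and members in colour by subunit. Short genes lie lower than long genes in the whole table, and 13 of the 34 tested members lie at up to 1000 bp, 14 over 1000 and up to 2000 bp and 7 over 2000 bp.

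Other genes of mitochondrial translation were taken from lists by role. Of 6 ribosome subunits with other or former symbols, MRPL58 among them, 3 were tested, and AURKAIP1, a small-subunit protein first known as a partner of Aurora kinase A, was called lower in NMN-supplemented than in control oocytes (7.95 and 17.4 FPKM in controls, 6.49 and 1.59 with NMN; adjusted P = 0.099). Of 32 genes listed for ribosome assembly and rRNA modification 14 were tested, and in that comparison 3 were called lower and 3 higher. The higher ones were FASTKD2 (adjusted P = 0.0613), LARP4B (adjusted P = 0.0637) and DHX30 (adjusted P = 0.0887). LARP4B was on the list without a known role in this ribosome. Called in either direction were 42.9% of these tested genes and 41.3% of every tested gene. YBEY, an RNA-processing endonuclease, had 1.66 and 1.71 FPKM in controls, 1.03 and 1.18 under heat stress, and 0.533 and 0.526 with NMN (adjusted P = 0.021). DDX28, a helicase for assembly of the large subunit, had 10.2 and 7.14, 2.89 and 6.44, and 1.92 and 0.903 FPKM (adjusted P = 0.0273). In heat-stressed against control oocytes 2 genes of this list were called, YBEY (adjusted P = 0.183) and RPUSD3 (adjusted P = 0.203), both lower. In NMN-supplemented against heat-stressed oocytes 3 were lower and 1 higher, with the smallest P for NGRN (adjusted P = 0.268) and YBEY (adjusted P = 0.27). Of all tested genes, 10.1% were called lower and 12.7% higher in heat-stressed against control oocytes. The shares were 6.45 and 7.15% in NMN-supplemented against heat-stressed oocytes.

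Of 20 translation factors and helpers found under their listed symbols, only 2 had a mean of at least 1 FPKM. C6orf203, also listed, stands under the pig symbol C1H6orf203 and was missed by the match. It was among the tested genes, with a log2 fold change of -0.87 between NMN-supplemented and control oocytes, and is not in the counts here. TUFM, the elongation factor that brings aminoacyl-tRNA to the ribosome, had 2.44 and 3.42 FPKM in controls, 1.15 and 1.08 under heat stress, and 0.422 and 0.545 with NMN. TUFM was called lower in all 3 comparisons, and its log2 fold change between NMN-supplemented and control oocytes was -1.40 ± 0.16 (SE; adjusted P = 0.021). In limma the adjusted P was 0.111 for heat stress against control and 0.34 for NMN against heat stress. Of 18 mitochondrial aminoacyl-tRNA synthetases 4 were tested, and IARS2, which charges the tRNA for isoleucine, was called higher in all 3 comparisons. Its FPKM was 3.44 and 3.95 in control, 4.50 and 5.18 under heat stress, and 6.37 and 6.30 with NMN. The adjusted P in limma was 0.028 for NMN against control, 0.217 for heat stress against control and 0.355 for NMN against heat stress.

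The 13 mRNAs that this ribosome translates moved the other way from most members. Their summed FPKM was 118500 and 101200 in controls, 181000 and 146000 under heat stress, and 177400 and 176000 with NMN. In heat-stressed against control oocytes 9 of 13 were called higher and 0 lower, with a median log2 fold change of 0.57. Of all tested genes, 12.7% were called higher there. Between NMN-supplemented and heat-stressed oocytes 2 were called higher, ND6 (adjusted P = 0.35) and ND1 (adjusted P = 0.36), both subunits of complex I. In NMN-supplemented against control oocytes 11 of the 13 were called higher, 8 of them with an adjusted P under 0.05, with a median of 0.81. Of all tested genes, 25.6% were called higher there, and 12.4% with an adjusted P under 0.05. The summed FPKM of nuclear genes was 60072 and 62744 in controls, 109125 and 57865 under heat stress, and 61812 and 59499 with NMN, and the groups overlapped. Without LOC100513953 the sum of heat-stressed replicate 1 was 68759. The median FPKM of tested genes lay between 3.11 and 3.22 in all 6 samples. The part of the scaling in the rise of these mRNAs was not tested.

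The ribosomal proteins of the cytosol, which build the ribosome that makes all other proteins of the cell, were counted in the same way. Of 80 genes with RPL or RPS symbols 35 were tested. In heat-stressed against control oocytes 9 were called lower and 1 higher, with a median log2 fold change of -0.45, and RPL27 had the smallest P (adjusted P = 0.111). In NMN-supplemented against heat-stressed oocytes 3 were lower and 0 higher, with a median of -0.22. In NMN-supplemented against control oocytes 16 were lower and 1 higher, with a median of -0.70, and RPS24 and RPS25 had the smallest P (adjusted P = 0.0238 for both). Of all tested genes, 10.1, 6.45 and 15.7% were called lower in the 3 comparisons in this order, and 12.7, 7.15 and 25.6% higher. The summed FPKM of the 80 cytosolic genes was 205 and 227 in controls, 179 and 173 under heat stress, and 148 and 135 with NMN, with no overlap between the groups. Their difference from the members was not tested.

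Genes below the testing limit of 1 FPKM held most of the family, with 43 of 77 members. By group means, 33 of these 43 were lower in heat-stressed than in control oocytes, 29 lower in NMN-supplemented than in heat-stressed and 35 lower in NMN-supplemented than in control oocytes. The share of all genes under 1 FPKM that were lower was not counted. Fitted with no filter, 50.8, 49.7 and 54.2% of 20552 genes were lower in these comparisons, and 60, 48 and 62 of all 77 members. MRPL19 and MRPS2, picked with their values known, show how near to 0 such values came. MRPL19 had 0.656 and 1.28 FPKM in controls, 0.0480 and 0.0713 under heat stress, and 0.0457 and 0 with NMN. MRPS2 had 0.740 and 1.31, 0.927 and 1.03, and 0 and 0 FPKM. The depth behind these values is unknown, so whether a value listed at 0 means few molecules or a failed estimate cannot be told apart.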

How the data were processed

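RNA was sequenced from 6 samples of porcine oocytes, 2 per group, grouped by their labels. The authors trimmed reads with cutadapt, mapped them to pig assembly susScr11 with tophat2 and, per the labels, used Cufflinks 2.2.1, Cuffnorm and Cuffdiff. The authors deposited FPKM per gene and sample. Their fold changes and P-values were not used. No read counts enter the tests, and the depth of a sample is unknown.

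Values were taken as log2(FPKM + 1). Genes with a mean of at least 1 FPKM (4713 of 29861) were fitted in one model of the 3 groups with limma 3.58.1 (R 4.3.3), using its empirical Bayes step with a variance trend. P-values are two-sided and were adjusted by the Benjamini-Hochberg method over all tested genes. The fit was tested on simulated data. The members, gene lists and tests were chosen with earlier results of these data known, so no list is independent support. Named members were, per comparison and direction, up to 6 called at P under 0.05 whose samples did not overlap, by size of the log2 fold change, the 5 MRPL and 5 MRPS genes with the highest mean, and MRPS30, MRPS18A and MRPS36, and of each other list the 2 genes with the smallest P under 0.05, of which the text gives some. All 77 symbols matched RefSeq genes of Sscrofa11.1, the build of the files, from which transcript lengths, GC content and promoters were taken. Alternatives were another pseudocount, other filters and scalings, quantile normalization, the replicate number as a block, subunits by structure and leaving out each sample. Python 3.11.15 with pandas 2.3.3, scipy 1.17.1, pysam 0.24.0 and matplotlib 3.10.9 was used.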

Additional observations from a re-analysis of the deposited data

How the results depend on the processing

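No alternative turned the direction of a called member. A minimum mean of 0.1 FPKM and no filter, which test more genes, gave 15 and 16 called members in heat-stressed against control (6 as reported), 11 and 11 in NMN-supplemented against heat-stressed (5) and 25 and 23 in NMN-supplemented against control oocytes (11). At the former, 16.0% of 11651 genes were called in the first, 1161 genes in the second and 27.8% in the last of these comparisons. With no filter, 11.6, 7.6 and 18.0% of 20552 genes were called in the same order. In NMN-supplemented against control oocytes, 36.8 and 29.9% of members were called at these filters, above the shares of all genes. The fit reported above called 32.4% of members there, below the 41.3% of all tested genes. In that comparison, members with an adjusted P under 0.05 numbered 2 at a minimum mean of 0.1 FPKM and 0 with no filter. Same-numbered samples did not deviate together (correlations of -0.032, 0.00805 and -0.0139). With 2 samples per group this cannot tell whether they were collected in pairs. With the replicate block 8 members and 11.2% of all tested genes were called in NMN-supplemented against heat-stressed oocytes. Scaling to the same nuclear sum gave 3 members there, where 5.7% of all tested genes were called. This scaling moved the median of all genes to -0.22, 0.35 and 0.13 and lost 10 of 22 member calls, both of MRPS16 among them. Without LOC100513953 in that sum, an alternative chosen after seeing the data, 1 of 22 was lost and the medians of all genes were 0.02, 0.12 and 0.12. Leaving out a sample gave between 4 and 8 calls in NMN-supplemented against heat-stressed oocytes, and 8 without heat-stressed replicate 2.

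The large-subunit medians were -0.50 in heat-stressed against control and 0.0271 in NMN-supplemented against heat-stressed oocytes with the same nuclear sum. In the latter they were -0.0749 and -0.0609 with the lower filters and -0.36 with a pseudocount of 0.1 FPKM. In NMN-supplemented against control oocytes they were -0.25 with no filter and -0.65 with that pseudocount. The small-subunit medians in heat-stressed against control oocytes were -0.0694 and -0.066 with the lower filters, -0.42 with the same nuclear sum and -0.26 by structure. In NMN-supplemented against heat-stressed oocytes they were -0.0358, -0.0163 and 0.28, and -0.27 with quantile normalization against control. Leaving out a sample gave ranges for the large subunit of -0.32 to -0.13, -0.31 to 0.0071 and -0.55 to -0.30 over the comparisons in the same order, and for the small subunit of -0.26 to -0.12 with heat stress and -0.21 to 0.0048 in NMN-supplemented against control oocytes. The control ratio of the subunit sums was 1.80 by structure. Where no cause is named, the cause was not tested. With 2 samples per group and unknown depth, members under 1 FPKM could not be resolved.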
